A study of Mus musculus with 3 samples.

Results

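The Schlafen family of the mouse was followed through chromatin-associated RNA of macrophages that had met Lipid A a second time. The 7 genes Slfn1, Slfn2, Slfn3, Slfn4, Slfn5, Slfn8 and Slfn9 were taken by symbol, out of 55536 annotated genes of which 22028 are protein-coding. The cells were bone-marrow-derived macrophages of C57BL/6J mice, a primary cell type grown from marrow precursors. They had been given Lipid A, the part of lipopolysaccharide that the receptor TLR4 recognises, at 100 ng/ml for 12 h, had been kept for 12 h after a washout, and had met the same dose again for 10 min. Total RNA of the chromatin fraction was sequenced after depletion of ribosomal RNA, in 3 libraries labelled as biological replicates of this 1 condition. The labels give the libraries separate biosamples but the same donor identifier, with age and sex not collected, so the p-values below measure only the spread between these libraries. No unstimulated library and no other RNA fraction was analysed here, so the values are levels and not responses to Lipid A. A lower level in such bulk RNA cannot be told apart from fewer cells that carry the transcript.

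Schlafen proteins share an N-terminal core domain, and in the mouse they are sorted by length. Slfn1 and Slfn2 are the short members, Slfn3 and Slfn4 are intermediate, and Slfn5, Slfn8 and Slfn9 are the long members with a helicase-like C-terminal part. Several members are induced by type I interferon, which macrophages release after TLR4 stimulation and which acts through the transcription factor complex ISGF3. The family is known for restraint of cell growth, and some members in mouse and human bind or cut tRNA and restrict viruses.

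The coding sequences fall into close pairs, which bears on how reads could be divided between the genes. Over all aligned coding bases Slfn8 and Slfn9 were 92.7% identical and Slfn3 and Slfn4 92.3% identical, while the other 19 pairs ranged from 57.6% (Slfn1 and Slfn5) to 75.3% (Slfn1 and Slfn4). The first 120 coding bases of Slfn8 and Slfn9, and the first gap-free 120 bases of the alignment of Slfn3 (coding bases 240 to 359) and Slfn4 (coding bases 138 to 257), are printed 5′ to 3′ from the mm10 transcripts of GENCODE M21, with capitals at the bases that differ within a pair.
Slfn8: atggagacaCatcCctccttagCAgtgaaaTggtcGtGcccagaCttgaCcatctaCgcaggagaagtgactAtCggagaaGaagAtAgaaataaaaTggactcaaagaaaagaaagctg
Slfn9: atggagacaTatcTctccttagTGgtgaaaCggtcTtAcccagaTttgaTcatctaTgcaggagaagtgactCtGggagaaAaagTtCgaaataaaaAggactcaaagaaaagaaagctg
Slfn3: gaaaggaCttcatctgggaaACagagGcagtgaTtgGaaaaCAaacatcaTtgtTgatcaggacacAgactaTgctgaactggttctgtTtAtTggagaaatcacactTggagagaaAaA
Slfn4: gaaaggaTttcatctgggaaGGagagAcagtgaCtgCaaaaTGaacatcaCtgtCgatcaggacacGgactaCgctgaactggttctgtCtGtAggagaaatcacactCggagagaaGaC
These windows held 16 differences between Slfn8 and Slfn9 and 18 between Slfn3 and Slfn4 of their 120 positions.

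The promoters were read for 2 motifs on both strands, the interferon-stimulated response element (ISRE) bound by ISGF3, spelled as TTTC and TTTC parted by any 2 bases, and the gamma-activated sequence (GAS) bound by STAT dimers, spelled as TTC and GAA parted by any 3 bases. RefSeq windows on GRCm38.p6, the assembly that mm10 names, ran from 250 bases before to 50 bases after each RefSeq gene start. All 7 members matched an entry. The RefSeq start used for Slfn5 lies downstream of its GENCODE start at 82951349, so its whole window lies inside the annotated gene. For Slfn1 the 50 bases after the RefSeq start were not found whole in its GENCODE transcript, and its GENCODE start is at 83116849. The ISRE letters occurred in the windows of 3 members, Slfn5, Slfn8 and Slfn9, the long ones among the 7. They were in none of the windows of the other 4. These letters were also absent from the window of Slfn14, a further long Schlafen gene that is not among the members. They occurred in 3.44% of 32851 promoter windows of the same length, and in those of 13 of the 21 interferon-stimulated genes that had an entry, from a list of 30. The GAS letters were in no member's window, against 8.30% of all windows. A match is a description of letters and not a measured binding site, and the lack of one says only that these letters are not in the window. The windows of Slfn5 (chr11:82951852-82952151, plus strand), Slfn8 (chr11:83020761-83021060, minus strand), Slfn9 (chr11:82991781-82992080, minus strand) and, as the most abundant member, Slfn4 (chr11:83174936-83175235, plus strand) are printed with ISRE letters in capitals.
Slfn5 promoter: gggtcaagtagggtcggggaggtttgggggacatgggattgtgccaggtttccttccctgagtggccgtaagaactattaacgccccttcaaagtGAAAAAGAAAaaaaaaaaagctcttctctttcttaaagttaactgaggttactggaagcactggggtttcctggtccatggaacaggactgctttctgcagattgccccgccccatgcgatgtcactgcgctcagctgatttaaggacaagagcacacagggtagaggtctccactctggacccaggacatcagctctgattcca
Slfn8 promoter: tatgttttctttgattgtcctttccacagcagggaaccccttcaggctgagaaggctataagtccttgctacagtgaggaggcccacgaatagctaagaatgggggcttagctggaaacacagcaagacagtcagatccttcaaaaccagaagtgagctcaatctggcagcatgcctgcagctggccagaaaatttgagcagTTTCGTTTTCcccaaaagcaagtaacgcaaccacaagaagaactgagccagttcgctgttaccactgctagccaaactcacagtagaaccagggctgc
Slfn9 promoter: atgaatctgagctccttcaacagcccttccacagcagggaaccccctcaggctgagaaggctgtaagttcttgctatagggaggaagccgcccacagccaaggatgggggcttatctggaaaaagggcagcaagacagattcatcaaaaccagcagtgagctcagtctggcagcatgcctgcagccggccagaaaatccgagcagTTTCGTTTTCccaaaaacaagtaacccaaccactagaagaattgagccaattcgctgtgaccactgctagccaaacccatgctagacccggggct
Slfn4 promoter: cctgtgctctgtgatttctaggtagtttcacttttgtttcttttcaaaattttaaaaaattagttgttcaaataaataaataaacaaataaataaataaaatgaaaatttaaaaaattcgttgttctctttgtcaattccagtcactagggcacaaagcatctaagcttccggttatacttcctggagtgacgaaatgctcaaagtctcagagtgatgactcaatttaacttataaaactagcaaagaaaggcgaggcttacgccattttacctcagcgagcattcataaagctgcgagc
In Slfn9 and Slfn8 the word was TTTCGTTTTC, starting 45 and 48 bases before the start, and the 2 windows were 84.9% identical over 292 aligned bases. In Slfn5 the word stood as its reverse complement, GAAAAAGAAA, starting 155 bases before the RefSeq start and running into a stretch of adenines. A second RefSeq start of Slfn8 (chr11:83020673-83020972, minus strand) held the same word 136 bases before it.

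All 7 members were detected, at a TPM (an abundance scaled by transcript length and by the total of the library) of 1 or more in all 3 libraries, as were 45.6% of protein-coding genes. The family ranged over more than an order of magnitude, with the highest mean in Slfn4 and the lowest in Slfn9, and each member's mean lay at or above the 82.9 percentile of protein-coding genes. Levels are given below for replicates 1, 2 and 3, from the authors' gene tables. Library depth was 13538605, 19949204 and 18224466 expected counts on genes, and members held between 439 and 28105 counts in a library.

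Slfn4 (ENSMUSG00000000204.16, chromosome 11, 83175186 to 83190216, plus strand), which myeloid cells of the mouse induce on TLR and interferon stimulation, was at 586, 243 and 216 TPM, a mean of 348 ± 206 TPM (SD, n = 3). Replicate 1 stood far above the other libraries, which lay close together, and without it the mean was 229 TPM. Only 62 protein-coding genes had a higher mean. Slfn3 (ENSMUSG00000018986.10, 83191330 to 83215154, plus strand), the other intermediate member, was at 35.8, 34.2 and 28.0 TPM, a mean of 32.7 ± 4.10 TPM (SD, n = 3), and its libraries were close to each other. Slfn3 is the neighbour of Slfn4 on the chromosome and its closest relative in sequence, and its level was far below that of Slfn4 in each library.

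Slfn8 (ENSMUSG00000035208.16, 83002158 to 83020810, minus strand), a long member, was at 261, 171 and 163 TPM, a mean of 198 ± 54.2 TPM (SD, n = 3). Slfn5 (ENSMUSG00000054404.13, 82951349 to 82964840, plus strand), whose human counterpart restrains interferon-driven transcription, was at 177, 106 and 102 TPM, a mean of 128 ± 42.1 TPM (SD, n = 3). In both genes replicate 1 was high and replicates 2 and 3 were close together. Slfn9 (ENSMUSG00000069793.12, 82978390 to 82991830, minus strand), the near copy of Slfn8, was at 27.1, 14.9 and 11.9 TPM, a mean of 18.0 ± 8.06 TPM (SD, n = 3). It was the lowest member, and again highest in replicate 1.

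Slfn2 (ENSMUSG00000072620.3, 83065112 to 83070678, plus strand), whose mutation in mice leaves T cells and monocytes unable to hold quiescence, was at 157, 132 and 123 TPM, a mean of 137 ± 17.7 TPM (SD, n = 3). Slfn1 (ENSMUSG00000078763.2, 83116849 to 83122670, plus strand), first described as a growth regulator of thymocytes, was at 40.6, 22.0 and 16.5 TPM, a mean of 26.4 ± 12.6 TPM (SD, n = 3). Of the short members, Slfn2 was thus the more abundant in each library, and the spread of Slfn1 was the wider relative to its mean.

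**Figure D1:**
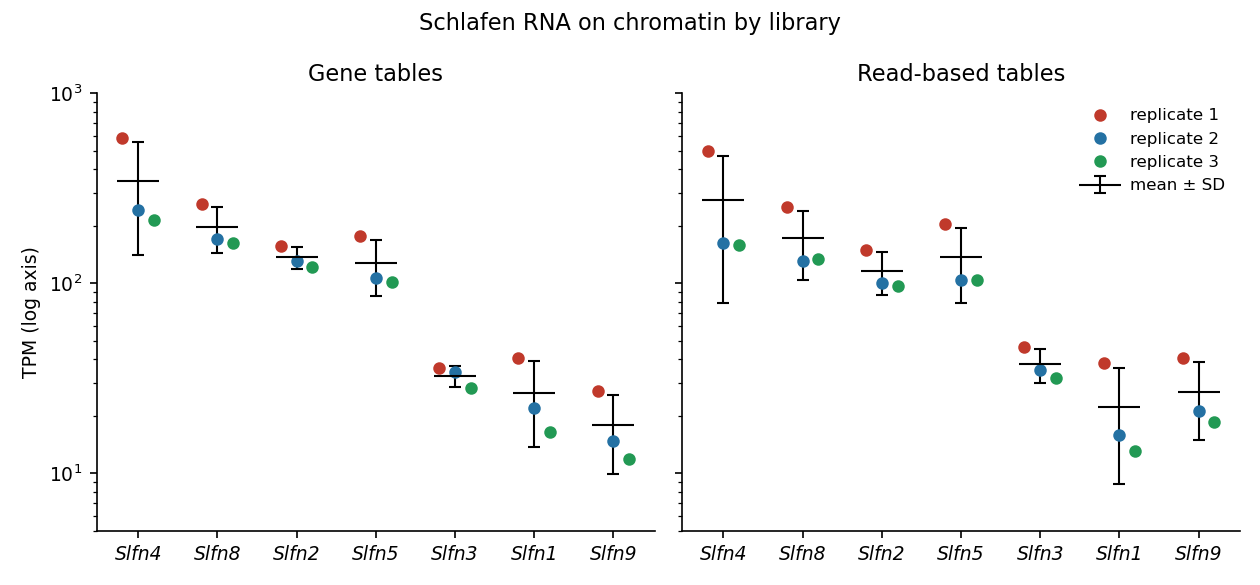
Level of each Schlafen gene in the 3 libraries (TPM, log axis) in the gene tables (left) and the read-based tables (right), ordered by gene-table mean, with points for libraries and bars for the mean ± SD. In the gene tables the order runs from Slfn4 at a mean of 348 TPM to Slfn9 at 18.0 TPM, and replicate 1 is the highest point of all 7 members.

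The order of mean levels was Slfn4, Slfn8, Slfn2, Slfn5, Slfn3, Slfn1, Slfn9. Replicates 2 and 3 each gave this order, whereas in replicate 1 Slfn5 was above Slfn2 and Slfn1 above Slfn3. Each of the 6 neighbouring pairs was compared within libraries on the log2(TPM + 0.1) scale with an exact two-sided sign-flip test, which with 3 libraries cannot give a p below 0.25. The gap of Slfn5 over Slfn3 was the widest, at 1.93 ± 0.34 (SD, n = 3; exact p = 0.25), and it parts 4 abundant members from 3 lower ones. Slfn4 over Slfn8 differed by 0.69 ± 0.41, Slfn8 over Slfn2 by 0.50 ± 0.20 and Slfn1 over Slfn9 by 0.54 ± 0.06 (SD, n = 3; exact p = 0.25 for each), with the same sign in 3 of 3 libraries. Slfn2 over Slfn5 (0.14 ± 0.27) and Slfn3 over Slfn1 (0.40 ± 0.51) kept their sign in 2 of 3 libraries (SD, n = 3; exact p = 0.5 for each), so these neighbours did not differ beyond their spread.

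Members with close sequence partners held very unequal levels. Slfn8 exceeded Slfn9 and Slfn4 exceeded Slfn3 in each library of the gene tables and of the read-based tables, a second set of transcript tables that the authors made directly from reads. In the read-based tables the means were 275 ± 196 TPM for Slfn4, 173 ± 68.8 for Slfn8, 138 ± 58.8 for Slfn5, 116 ± 29.7 for Slfn2, 37.8 ± 7.67 for Slfn3, 26.8 ± 11.8 for Slfn9 and 22.4 ± 13.6 for Slfn1 (SD, n = 3). The ratio of the read-based mean to the gene-table mean ran from 0.789 for Slfn4 to 1.49 for Slfn9. In 2 neighbouring pairs the genes thereby changed places, since Slfn5 was above Slfn2 by 0.19 and Slfn9 above Slfn1 by 0.34 on the log2 scale in the read-based tables.

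The family as a whole took 0.428%, 0.234% and 0.241% of protein-coding TPM in replicates 1, 2 and 3, with sums of 1284, 723 and 659 TPM. Slfn4 alone made up 45.6%, 33.5% and 32.7% of these sums. Slfn8 followed at 22.9% ± 2.30, Slfn2 at 16.4% ± 3.59 and Slfn5 at 14.6% ± 0.818 of the family sum (SD, n = 3). The shares of a sum are tied to each other, so a higher share of Slfn4 in replicate 1 lowers the others there.

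The 7 members were each highest in replicate 1 by TPM, as were 27.9% of the protein-coding genes detected, and by CPM scaled with the TMM method (trimmed mean of M-values, which sets libraries level over most genes), as were 38.1% of all genes tested. A negative binomial goodness-of-fit test in edgeR asked whether a gene varied between libraries beyond the trend for genes of its level, with Benjamini-Hochberg adjustment over 14789 genes and a threshold of 0.05. It called 3 of 7 members, beside 1.12% of all genes tested and 0.845% of the protein-coding ones. All 3 were highest in replicate 1, as were 132 of the 166 genes called over all genes tested. Most called genes were thus highest there, and those 132 are 0.893% of the genes tested. Slfn4 had an adjusted p of 0.000338, Slfn1 of 0.0116 and Slfn9 of 0.0323 in edgeR. The call of Slfn9 was lost in the read-based tables, at an edgeR adjusted p of 0.221. Slfn4 scaled to 1958, 753 and 735 CPM in replicates 1, 2 and 3, so that replicate 1 was 2.63 times the mean of the others while replicates 2 and 3 differed by 1.02 times. Slfn1 was at 62.3, 30.6 and 25.3 scaled CPM, a ratio of 2.23, and Slfn9 at 119, 61.3 and 53.6 scaled CPM, a ratio of 2.06.

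The other 4 members did not pass. Slfn8 (ratio 1.67, edgeR adjusted p = 0.557) and Slfn5 (ratio 1.52, edgeR adjusted p = 0.933) had scaled CPM that were also highest in replicate 1, and Slfn2 (ratio 1.30) and Slfn3 (ratio 1.16) had an edgeR adjusted p of 0.9997 each. Replicate 1 was singled out for these ratios after its values were seen. In all tested genes 7.70% were at least 1.5 times higher in replicate 1 than in the mean of the other libraries, against 5 of 7 members. The calls rest on replicate 1, since without it edgeR called 0 of 7 members, with 0 of 7 at an unadjusted p under 0.05. Of all 15101 genes it then called 56, with 824 at an unadjusted p under 0.05. Without replicate 2 it called 0 of 7, with 3 of 7 at an unadjusted p under 0.05. Of all 14675 genes it then called 76, with 762 at an unadjusted p under 0.05. Without replicate 3 it called 1 of 7, Slfn4, beside 58 of all 14901 genes. DESeq2, which marks genes whose dispersion lies far above its trend, marked Slfn4 alone among the members, within 115 genes of 24516.

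The authors also gave intervals on the TPM scale, at a level that is not given in the sources used here. They lie around a posterior estimate that differs from the TPM printed above, which stood inside its interval in 4 of 21 values. The interval of replicate 1 lay above those of both other libraries for 6 of 7 members, with Slfn3 the exception. The share of all genes with such intervals was not computed, so this count is not shown to be particular to the family. Interval widths were 2.43% to 17.3% of the TPM, and the posterior SD of a member's count was at most 6.80 counts. The posterior SD holds the error of read assignment within a library, and it was 0 for Slfn1 and Slfn2 in each library. The intervals of these genes were still 6.53% to 17.3% of the TPM wide, so the intervals hold more than that error. Neither value holds the variation between libraries.

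Replicate 1 stood apart in several features beside these results. It was made from 1 µg of RNA, against 250 ng for replicate 2 and 500 ng for replicate 3, and had the fewest counts on genes. Ribosomal RNA repeats took 10.1% of its gene counts, against 21.4% and 23.6% in replicates 2 and 3, and entries that are no gene took 1.39% of all its counts, against 0.288% and 0.283%. Their part in the result was not tested.

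**Figure D2:**
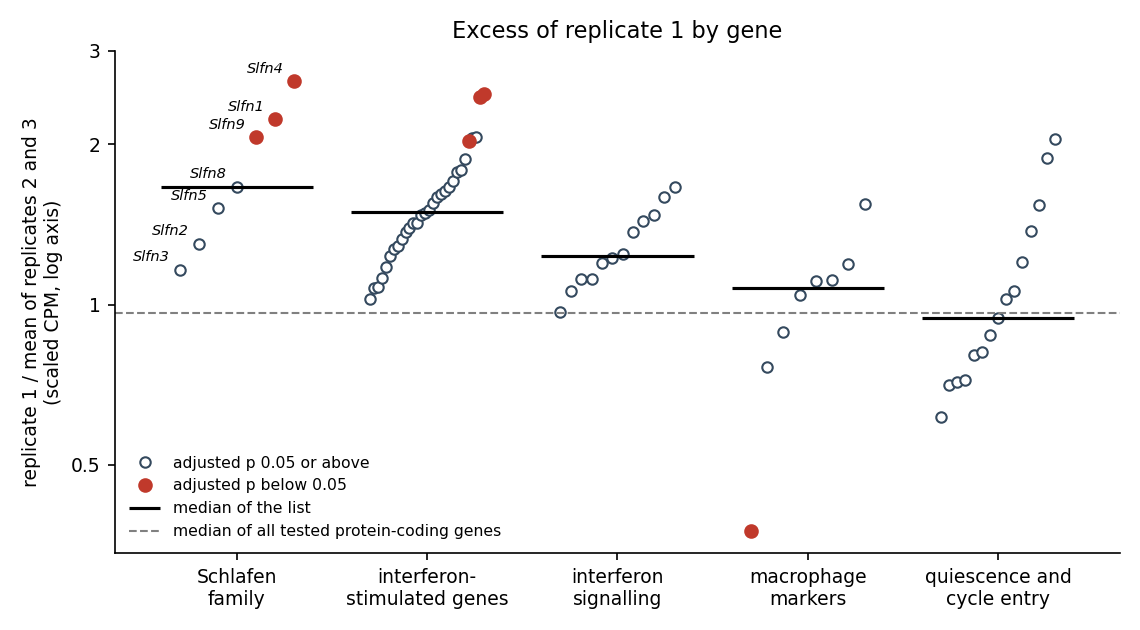
Ratio of replicate 1 to the mean of replicates 2 and 3 (TMM-scaled CPM, log axis) for each tested gene of 5 lists, with black bars at list medians, filled points for genes called by edgeR and a dashed line at the median of tested protein-coding genes. The Schlafen median is 1.67 and that of interferon-stimulated genes 1.5, beside 0.964 for protein-coding genes.

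The genes of the interferon response were abundant, and most of them were highest in replicate 1. The 7 Schlafen genes had a median of 6.90 ± 0.35 in log2(TPM + 0.1), against 7.29 ± 0.39 for 30 interferon-stimulated genes, all detected, and -0.43 ± 0.13 for all protein-coding genes (SD over libraries, n = 3). Mx1, an antiviral GTPase, led at 1977 TPM, before Stat2, Parp14 (644 TPM) and the antiviral enzyme Rsad2 (566 TPM), and the RNase Isg20 was lowest at 13.9 TPM. edgeR called 3 of these 30 genes, all highest in replicate 1, as were 132 of the 166 genes called over all genes tested. Of the 30, 16 had an unadjusted edgeR p under 0.05, beside 899 of all 14789 genes tested, and DESeq2 marked 3. Cmpk2, a mitochondrial nucleotide kinase, was at 348, 167 and 128 TPM (edgeR adjusted p = 0.000778), the GTPase Gbp2 at 76.8, 40.1 and 26.3 TPM (edgeR adjusted p = 0.000338), and Mx2 at 312, 183 and 128 TPM (edgeR adjusted p = 0.0332). By scaled CPM 29 of 30 were highest in replicate 1, with a median ratio of 1.5.

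Set among those 30 genes by mean TPM, Slfn4 had 7 above it, Slfn8 14, Slfn2 16 and Slfn5 17, while Slfn3, Slfn1 and Slfn9 had 29 above them each. The most abundant members thus sat within the range of common interferon-stimulated genes and the 3 lower members near its bottom. The 12 genes listed for interferon signalling to ISGF3 include inhibitors and further transcription factors, and some are also in the list of 30. All 12 were detected, with a median of 6.41 ± 0.32 (SD, n = 3). Stat2 (671 TPM), a subunit of ISGF3, was at the top, the transcription factors Irf7 (314 TPM) and Irf1 (120 TPM) were also among the highest, and the feedback inhibitor Socs1 was lowest at 3.45 TPM. edgeR called 0 of these 12, with 3 at an unadjusted p under 0.05, and DESeq2 marked 0. By scaled CPM 10 of 12 were highest in replicate 1, with a median ratio of 1.24.

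Of 13 interferon-induced genes that act on RNA or translation, all were detected, with Oasl2 (527 TPM), Ifit3 (350 TPM), Ifit2 (342 TPM) and Oas2 (292 TPM) highest and a median of 7.37 ± 0.21 (SD, n = 3). edgeR called 0 of 13, with 4 at an unadjusted p under 0.05, DESeq2 marked 0, and the median ratio was 1.35. The list for tRNA cleavage and its inhibition also holds tRNA methyltransferases, so its values are not those of cleavage alone. Of its genes, 7 of 9 were detected at a median of 1.73 ± 0.12 (SD, n = 3). The tRNA methyltransferase Trmt1 (64.3 TPM), the ribonuclease inhibitor Rnh1 (24.3 TPM) and the tRNA methyltransferase Nsun2 (20.9 TPM) were highest, and Ang4 was listed at 0. edgeR called 0 of the 7 tested, with 0 at an unadjusted p under 0.05, DESeq2 marked 0, and the median ratio was 0.815. Of 16 genes of quiescence and cell cycle entry, 13 were detected at a median of 1.96 ± 0.31 (SD, n = 3), led by the cell cycle inhibitor Cdkn1a (30.6 TPM) and the transcription factor Foxo3 (20.9 TPM), with Klf4 lowest at 0.25 TPM. edgeR called 0 of the 15 tested there, with 1 at an unadjusted p under 0.05, DESeq2 marked 0, and the median ratio was 0.942.

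The genes nearest to Slfn4 in their levels were sought among 22027 other protein-coding genes, by Euclidean distance of log2(TPM + 0.1) over the 3 libraries. Iigp1, an immunity-related GTPase, was nearest at a distance of 0.47, with 469, 247 and 170 TPM. Ifit3 followed at 0.53 with 479, 305 and 265 TPM, and Ifit2 at 0.55 with 462, 315 and 248 TPM. Each of these was highest in replicate 1 as Slfn4 was, which the choice by closeness to Slfn4 in the same libraries largely brings about. Moreover, 3 libraries with 1 that stands apart are few points for such a likeness.

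The macrophage label was checked against markers. All 8 macrophage markers were detected, with summed levels of 835, 975 and 716 TPM in replicates 1, 2 and 3. The lipopolysaccharide co-receptor Cd14 was the 1 marker called by edgeR (adjusted p = 0.0194), at 6.81, 19.6 and 20.4 TPM, and so was lowest in the library where the Schlafen genes were highest. Of 8 neutrophil markers 0 were detected, at summed levels between 0.58 and 0.72 TPM with S100a8, S100a9 and Elane listed at 0. Of 8 T cell markers 1 was detected, Il7r at 5.77 TPM, and the list summed to 4.97, 4.16 and 9.01 TPM. Of 5 B cell markers and 5 NK cell markers 0 were detected, with sums of at most 1.15 and 0.03 TPM. Of 5 dendritic cell markers 1 was detected, and the sums were 2.28, 2.43 and 1.86 TPM. The Schlafen levels thus came with near-zero defining markers of neutrophils, B cells and NK cells. Whether other cells added to the Schlafen levels was not tested.

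**Figure D3:**
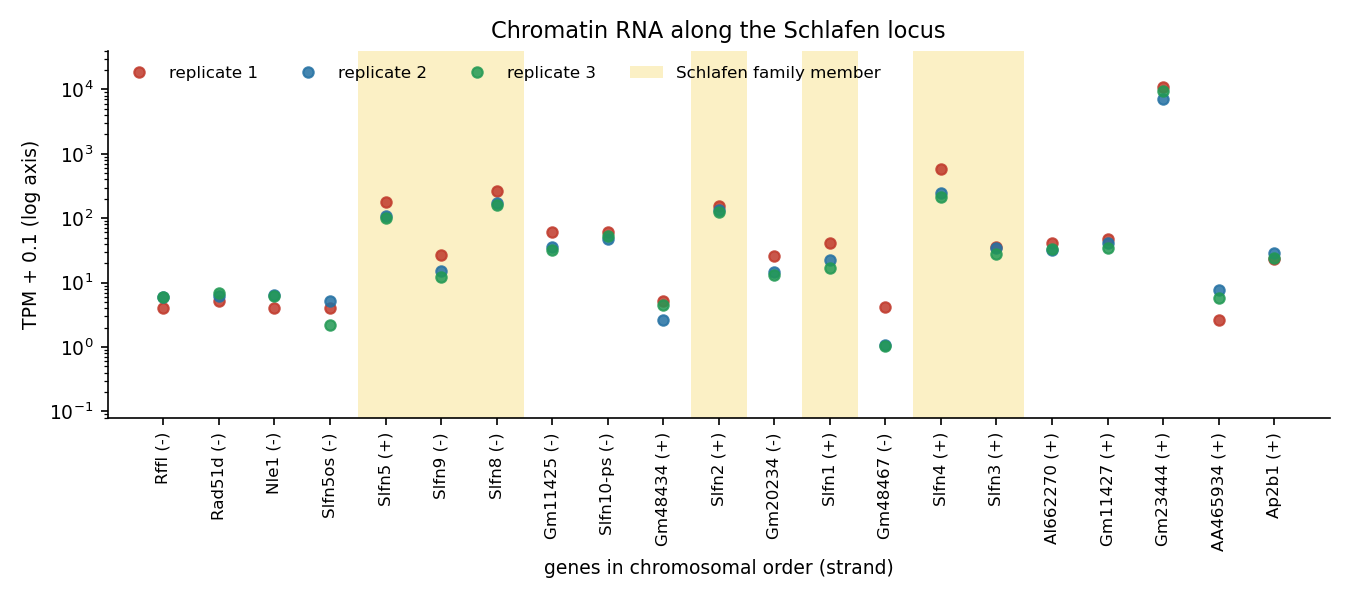
TPM + 0.1 in the 3 libraries (log axis) in chromosomal order, for the members, other genes of the Schlafen cluster with a mean TPM of at least 1, and genes within 100 kb on each side with a mean TPM of at least 5, with members shaded and the strand in brackets. Member means stand between 18.0 and 348 TPM, while protein-coding genes of the flanks reach at most 25.5 TPM and the noncoding gene Gm23444 stands above all.

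The 7 members lie side by side on chromosome 11, from 82951349 to 83215154 in mm10, a stretch of 264 kb. All 7 protein-coding genes in this stretch are members, 5 on the plus and 2 on the minus strand, and 15 other annotated genes lie between. The 8 protein-coding genes within 100 kb outside it, among them Rffl, Rad51d, Unc45b, Slfn14 and Ap2b1, had mean levels of 0.0133 to 25.5 TPM with a median of 4.01 TPM, and Slfn9 was the only member whose mean lay within their range. Among noncoding genes of the flanks the small nuclear RNA gene Gm23444 was far higher, at 11086, 7032 and 9364 TPM (edgeR adjusted p = 0.00362), while Gm11427, AI662270 and AA465934 had means of 40.9, 35.1 and 5.26 TPM. Slfn14, a further long Schlafen gene known for a part in platelets and red cells, was at 0.13, 0.09 and 0.02 TPM, from 6, 5 and 1 counts. It did not reach 1 TPM in any library, although it lies within 100 kb of Slfn4 and Slfn3. Slfnl1, a Schlafen-like gene on chromosome 4, was at 0.05, 0.16 and 0.04 TPM.

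Of the 15 other genes in the stretch, 6 had a mean TPM of at least 1. The pseudogene Slfn10-ps, between Slfn8 and Slfn2, was at 61.9, 46.7 and 52.3 TPM, a mean of 53.7 ± 7.70 TPM (SD, n = 3; edgeR adjusted p = 0.9997), above 3 of the protein-coding members. Gm11425 was at 60.9, 35.7 and 31.7 TPM (edgeR adjusted p = 0.104), and Gm20234 at 26.0, 14.4 and 13.0 TPM, each highest in replicate 1. Gm20234 overlaps the span of Slfn2 and shares no exonic base with it, and its read-based values were 213, 101 and 108 TPM. The processed pseudogenes Gm48434 and Gm48467 had means of 3.98 and 2.02 TPM. The antisense gene Slfn5os was at 3.98, 5.16 and 2.11 TPM in the gene tables, against 26.2, 12.6 and 8.11 TPM in the read-based tables. Slfn5os shares 559 exonic bases on the opposite strand with Slfn5, which is 8.84% of the exonic bases of Slfn5 and 50.7% of its own. The treatment of strand is not given in the sources used here, so reads of the 2 genes cannot be told apart there.

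**Figure D4:**
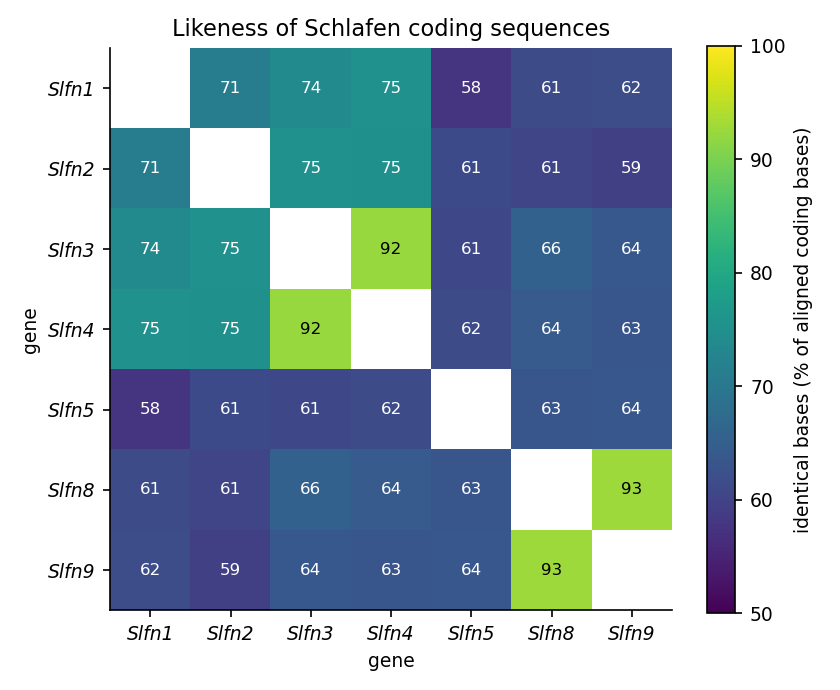
Pairwise identity of the coding sequences (percent of aligned bases) for the 7 members. Slfn8 with Slfn9 at 92.7% and Slfn3 with Slfn4 at 92.3% stand out from all other pairs, which reach at most 75.3%.

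Members share sequence with each other and with neighbouring genes, so some reads fit more than 1 gene. In runs of 31 bases, 27.3% of Slfn8, 24.6% of Slfn9, 30.9% of Slfn3 and 20.9% of Slfn4 occurred on either strand in the transcripts of another gene. Slfn8 shared 792 such runs with Slfn9 and 776 with Slfn10-ps, and Slfn9 shared 851 with Slfn10-ps. Slfn3 and Slfn4 shared 516. In contrast, Slfn1 shared 1.96% and Slfn5 13.4% of its runs, in Slfn5 none of them with another member. The levels of Slfn8, Slfn9, Slfn3 and Slfn4 thus rest in part on how the authors' quantifiers divided such reads.

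GENCODE M21 lists 21 transcripts for the 7 genes, 19 of them protein-coding and 0 annotated as retaining an intron, so unspliced RNA of these genes had no transcript of its own. Slfn1 and Slfn2 have a single transcript each. Their coding regions hold 337 and 378 codons, against 640 in Slfn3, 602 in Slfn4, 884 in Slfn5 and 910 in both Slfn8 and Slfn9. Among the other 5 genes, Slfn9 was the most one-sided, with Slfn9-201 at 78.6% ± 1.29 of its TPM (SD, n = 3).

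Slfn4 was divided between Slfn4-201 at 51.6%, 68.2% and 64.1% and Slfn4-202 at 48.0%, 30.6% and 34.5% of its TPM in replicates 1, 2 and 3. In this set of tables the library with the highest Slfn4 level had the most even division. Slfn5-201 took 56.0%, 70.2% and 69.2% of Slfn5, likewise lowest in replicate 1. Slfn8-201 took 53.3%, 45.4% and 45.9% of Slfn8, here highest in replicate 1. Slfn3 had the lowest share in a leading transcript, with Slfn3-201 at 42.3% ± 5.37 and the noncoding transcript Slfn3-203 at 34.4% ± 4.34 (SD, n = 3).

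The read-based tables divided the genes otherwise. The mean share was 52.0% for Slfn4-201, 45.0% for Slfn5-201, 55.1% for Slfn8-201, 30.9% for Slfn3-201 and 89.3% for Slfn9-201. In replicates 1, 2 and 3 Slfn4-201 took 43.7%, 59.7% and 52.7%, and Slfn4-202 took 56.1%, 39.6% and 46.2%. The most even division of Slfn4 was there in replicate 3, and Slfn4-202 led in replicate 1. Slfn3-203 took 45.5% there and so was the leading transcript of Slfn3. Slfn8-206 took 4.99%, 24.3% and 23.5% of Slfn8 in the first set of tables and was at 0 in the read-based ones. No difference between transcripts was tested.

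**Figure D5:**
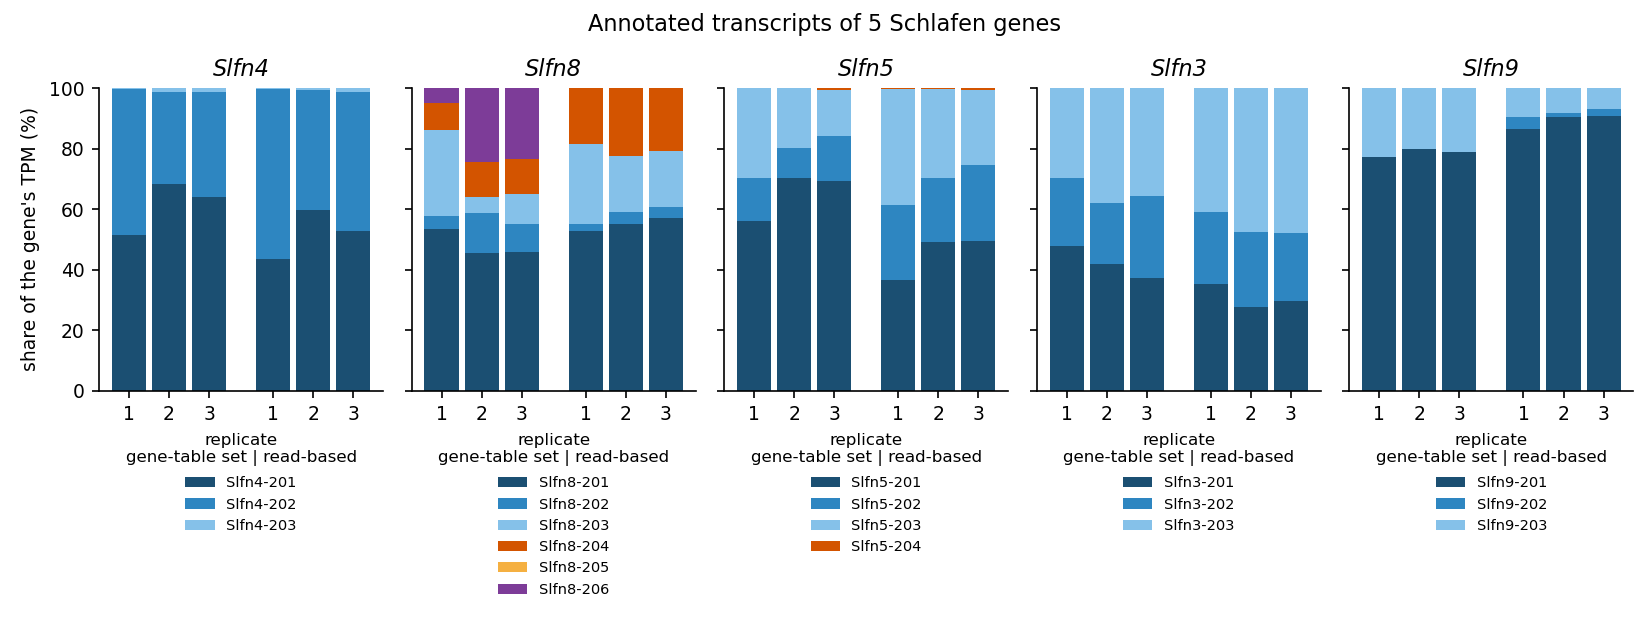
Share of each gene's TPM by transcript (percent, stacked bars) for the 5 members with several transcripts, with 1 bar for each library, the gene-table set left and the read-based set right. Slfn9-201 stays the leading transcript in both sets, whereas Slfn3-201 falls below Slfn3-203 in the read-based set, at a mean of 30.9% against 45.5%.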

How the data were processed

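Total RNA sequencing of the chromatin fraction was given for 3 libraries of 1 condition. Per the file headers and notes, the authors quantified alignments to mm10 transcripts (GENCODE M21) and deposited expected counts and TPM per gene and transcript, each transcript's percent of its gene's TPM, and interval bounds and posterior SDs, which are signal values on the scale of TPM or counts. A second deposited set holds estimated counts and TPM of transcripts taken from the reads without that alignment. Each of aligner, quantifier, version and strand setting is not given in the sources used here. TPM has a fixed sum, so abundant short RNAs lower all other TPM.

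Members were matched by symbol and gene identifier, and all 55536 identifiers were in the annotation. Read-based transcripts were summed per gene. Entries that are no gene stayed out of library sizes and tests. Expected counts were rounded, and genes kept by filterByExpr were fitted in edgeR 4.0.16 (R 4.3.3) with TMM scaling, an intercept and a trended dispersion, and deviances gave chi-square p-values with Benjamini-Hochberg adjustment. The step was also run on simulated counts, with an outcome that is not reported here. DESeq2 1.42.0 was an alternative. Likeness of coding sequences came from Biopython 1.88 alignments, and motifs from RefSeq promoters. Other steps used Python 3.11.15, pandas 2.3.3 and scipy 1.17.1.

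The members, gene lists and tests were chosen with earlier results of these data known. Named genes are the members, other Slfn symbols, up to 4 highest and the lowest of a list, genes of the locus with a mean TPM of at least 1, and the 3 nearest to Slfn4; genes called in a list and a few others outside this rule were named after their values were seen. The symbol Dnmt2 was not found, and the values of a few genes under this rule are not reported here. Counting intervals would cover counting error only, since no molecular identifiers are stated. Alternatives covered scaling, filters, units, the read-based tables, thresholds and leaving out each library.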

Additional observations from a re-analysis of the deposited data

How the results depend on the processing

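Of 80 alternative values other than those with a library left out, 52 kept their direction, their side of the threshold and, for levels, stayed within 1 SD of the libraries. The 80 include levels as CPM and as TPM rescaled to protein-coding genes, which all moved. Those levels are in other units, so the count of 52 does not measure how stable the results are. The count of 7 members detected held under each alternative run. The count of members called between libraries was 3 (Slfn1, Slfn4, Slfn9), beside 166 of all 14789 genes. It was also 3 with DESeq2 size factors (166 of 14789 genes). It stayed at 3 without a filter on low counts (221 of 24516) and in protein-coding nuclear genes only (122 of 11169). It was 2 in the read-based tables (273 of 23769), where Slfn9 had an edgeR adjusted p of 0.221. By DESeq2 dispersion outliers it was 1 (115 of 24516). Leaving out a library gave 0 to 1 members called. Over all genes 56, 76 and 58 were called without replicates 1, 2 and 3, so calls fell beyond the family as well. The edgeR adjusted p then lay between 0.0431 and 0.9999 for Slfn4, between 0.0697 and 0.9999 for Slfn1 and between 0.199 and 0.9999 for Slfn9. The highest value of each of these genes came without replicate 1, where Slfn4 had an unadjusted edgeR p of 0.857. The biological coefficient of variation, the edgeR estimate of spread between libraries, was 0.111 in that run, against 0.167 with all libraries. It was 0.196 without replicate 2 and 0.178 without replicate 3. Fewer libraries can weaken such tests, and why calls were lost was not tested.

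Levels moved by more than 1 SD in the read-based tables for Slfn2 (116 TPM), Slfn3 (37.8 TPM) and Slfn9 (26.8 TPM). As CPM without length scaling the means were 1173 for Slfn4, 588 for Slfn8, 501 for Slfn5, 180.0 for Slfn2, 79.0 for Slfn9, 58.6 for Slfn3 and 40.1 for Slfn1. Rescaled to protein-coding genes the TPM were 1177 for Slfn4, 673 for Slfn8, 467 for Slfn2, 435 for Slfn5, 110.9 for Slfn3, 89.0 for Slfn1 and 60.7 for Slfn9. Leaving out a library gave means of 229 to 414 TPM for Slfn4, 167 to 216 for Slfn8, 127 to 145 for Slfn2, 104 to 142 for Slfn5, 31.1 to 35.0 for Slfn3, 19.3 to 31.3 for Slfn1 and 13.4 to 20.985 for Slfn9. Slfn2 over Slfn5 reversed to -0.19 in the read-based tables and -1.45 as CPM, and Slfn1 over Slfn9 to -0.34 and -1.002; CPM ignores the lengths by which these pairs differ. Shares in the read-based tables were 52.0% for Slfn4-201, 55.1% for Slfn8-201, 45.0% for Slfn5-201, 30.9% for Slfn3-201 and 89.3% for Slfn9-201. No paired analysis was possible because all libraries belong to 1 group.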

Other observations

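Mir7679, a microRNA gene within an intron of Slfn9, was listed at 0 in all gene tables and at 515, 284 and 278 TPM in the read-based tables of replicates 1, 2 and 3. As in the members around it, replicate 1 had the highest read-based value. Whether unspliced RNA of Slfn9 enters these values was not tested.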
